A study of Homo sapiens with 6 samples.

Results

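Interferon-stimulated genes are the genes that cells switch on when an interferon binds its receptor, together here with the receptor and signalling genes that carry the message. The set was given as 45 gene symbols, of which 40 had a row among the 18625 genes of the normalized table. IFI44, IFI44L, IFIT5, OAS2 and XAF1 had no row under their symbol or Ensembl identifier and were not analysed here. RNA-seq was performed on NB4 cells, a human acute promyelocytic leukemia line carrying the PML-RARA fusion, after 3 days with the solvent DMSO alone or with 10 μM Tanshinone I (Tan I), a diterpene of Salvia miltiorrhiza given under DMSO, with 3 libraries in each group. Both groups were the same line in the same medium, and the labels name no added interferon. No label states that the libraries of a group came from separate cultures, so the p-values measure the spread between libraries, which may be technical. The extraction label mentions embryos, which does not match the sample titles, since these name NB4 cells. The comparison asks whether Tan I altered the interferon programme in these cells.

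Type I interferons bind IFNAR1 and IFNAR2, whose kinases TYK2 and JAK1 activate STAT2. It joins IRF9 in a complex that binds a promoter element called ISRE, built on repeats of GAAA, in genes such as IFIT1, ISG15 and MX1. Interferon gamma binds IFNGR1 and IFNGR2 and acts on a palindromic element called GAS, for example in IRF1. The induced proteins block viral RNA, protein synthesis and entry, and in myeloid cells the same genes are also expressed at a basal level without infection.

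The first promoter stretches shown here belong to members that were highest in DMSO replicate 2 and in Tan I replicate 3 of their groups, a pattern described further on, and the last are those of IRF1 and IRF9. They come from the RefSeq promoter table on GRCh38.p14, which covers 250 bases before and 50 bases after each start site, and 31 of the 40 members matched it. Capitals mark each match to the ISRE-type letters, TTTC, any 2 bases and TTTC again, on either strand (on the other strand GAAA, 2 bases, GAAA), and some matches overlap. IFIT3 is shown for the downstream one of its start sites.
IFIT1, chr10:89392482-89392554, + strand: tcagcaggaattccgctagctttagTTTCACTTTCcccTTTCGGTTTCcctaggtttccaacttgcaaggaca
IFIT3, chr10:89332410-89332512, + strand: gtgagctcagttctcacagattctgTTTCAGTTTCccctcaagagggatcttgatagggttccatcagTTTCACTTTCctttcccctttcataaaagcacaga
ISG15, chr1:1013359-1013424, + strand: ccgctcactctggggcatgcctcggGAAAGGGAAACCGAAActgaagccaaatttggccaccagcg
IFI6, chr1:27672251-27672373, - strand: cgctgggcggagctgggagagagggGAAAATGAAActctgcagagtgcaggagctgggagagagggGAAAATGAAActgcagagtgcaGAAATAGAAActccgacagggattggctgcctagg
BST2, chr19:17405720-17405785, - strand: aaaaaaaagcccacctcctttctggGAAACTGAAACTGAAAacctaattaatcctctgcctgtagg

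For IRF1 and IRF9 the capitals mark the GAS-type letters TTCNNNGAA, which read the same on both strands.
IRF1, chr5:132490864-132490922, - strand: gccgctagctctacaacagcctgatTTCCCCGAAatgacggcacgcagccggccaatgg
IRF9, chr14:24161177-24161235, + strand: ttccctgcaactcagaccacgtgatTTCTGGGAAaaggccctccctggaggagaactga

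The ISRE-type letters were found in the promoter of 14 of the 31 matched members (45.2%), against 4.38% of the 27305 genes in the promoter table. The GAS-type letters were found for 8 of the 31 members (25.8%), against 9.38% of all genes. DHX58, GBP2, IFIT2, IFITM2, IFNAR2, IRF7, OASL, TRIM22 and USP18 had no entry. A match is a description of the letters and not a bound site.

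Values are normalized counts, that is, reads per gene divided by a size factor for each library. The libraries held 21502760 to 31679138 reads on the listed genes. Even the closest pair, DMSO replicate 1 and Tan I replicate 1, differed beyond sampling noise (chi-square of 6.37 per gene). Within a group the closest pair was DMSO replicates 1 and 3, at 10.5, and pairs of Tan I libraries had 27.0 to 99.7. Across the genes tested, the leading principal component held 70.8% of the variance and did not follow the treatment. DMSO replicate 2 and Tan I replicate 3 had the highest scores, 41.1 and 71.6, and DMSO replicate 1 and Tan I replicate 1 the lowest, -48.0 and -46.8. Of 6 promyelocyte markers, 5 were listed, with a summed level of 70959 to 76923 under DMSO and 41825 to 50123 under Tan I. Most of this sum came from MPO. MPO, the granule peroxidase, had 62588 ± 1950 normalized counts under DMSO and 36602 ± 3112 under Tan I (SD, n = 3 per group). CTSG, a granule protease, had 1909 ± 438 and 1199 ± 333, and both genes lay lower in every Tan I library. Their log2 fold changes were -0.78 and -0.69 (limma, unadjusted p 0.000988 and 0.0262, adjusted p 0.999 for each). The groups overlapped for AZU1, PRTN3 and CD33, with log2 fold changes of -0.25, -0.32 and 0.07, and ELANE was not analysed here. The listed T cell markers (4 of 5) summed to 764 to 1215 under DMSO and 1018 to 1790 under Tan I, the B cell markers (3 of 5) to 516 to 801 and 556 to 914, and the NK cell markers (3 of 5) to 624 to 741 and 680 to 869. The listed plasmacytoid dendritic cell markers (2 of 4), erythroid marker (1 of 5) and fibroblast marker (1 of 5) summed to at most 631, 51.3 and 119.6 in any library, and MS4A1, PAX5, NCR1, CLEC4C, HBB and DCN were among those not analysed here. The T cell marker TRAC had 569 ± 151 under DMSO and 945 ± 257 under Tan I (SD, n = 3 per group), with overlapping groups. Its log2 fold change was 0.73 (limma, unadjusted p 0.0253, adjusted p 0.999). The part of the cell type markers in the results was not tested.

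No member of the interferon programme passed the test between Tan I and DMSO. At an unadjusted limma threshold of 0.05 with a log2 fold change beyond ±0.25, the test called 0 of the 39 members with a mean of at least 10 normalized counts, against 2.42% of the 16887 genes tested (1.32% higher and 1.1% lower). With Benjamini-Hochberg adjustment over all genes tested, limma called 0 members, where the background was 0.0%, and the smallest adjusted p of a member was 0.999. At an unadjusted p of at most 0.05 without the fold threshold the limma count was also 0. With the fold threshold, edgeR's quasi-likelihood test and DESeq2 on the recovered reads each called 1 member, GBP2, against 2.42% and 2.49% of all genes, and 0 members after adjustment. Rescaling to the same total also gave 1 member, GBP2, against 2.58%. Single libraries moved the unadjusted count: without Tan I replicate 1 it was 3 members (GBP2, IFITM2 and ISG15) against 8.87% of genes, and without Tan I replicate 2 it was 1 (IRF7) against 0.95%. With that leading component added as a covariate, chosen after seeing the data, it was 3 (GBP2, IRF7 and IRF9) against 8.86%, with 0 after adjustment against 1.15%. Without DMSO replicate 2 and Tan I replicate 3 it was 0 against 2.75%. DESeq2 gave no adjusted p for IFIT2, IFIT3, MX1 and OASL.

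The log2 fold changes of the members ran from -0.82 for MX1 to 0.61 for IFI35, with a median of 0.06 beside -0.00 for all genes tested. Of the 39 members, 22 had a fold change above 0 (56.4%, against 49.7% of all genes tested) and 17 below 0. After rescaling to the same total these counts were 20 and 19. A log2 fold change beyond ±0.25 was found for 7 members (17.9%), against 28.1% of all genes tested. An absolute value of at least 1 was reached by 0 members, against 1.19% of all genes tested. The 95% confidence interval lay within -1 and 1 for 32 of the 39 members (12341 of the 16887 genes tested). It lay within -0.5 and 0.5 for 13 members (4843 of 16887 genes), so changes of a smaller size were not resolved for most members. In bulk RNA, fewer cells expressing a gene and less RNA per cell cannot be told apart.

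**Figure D1:**
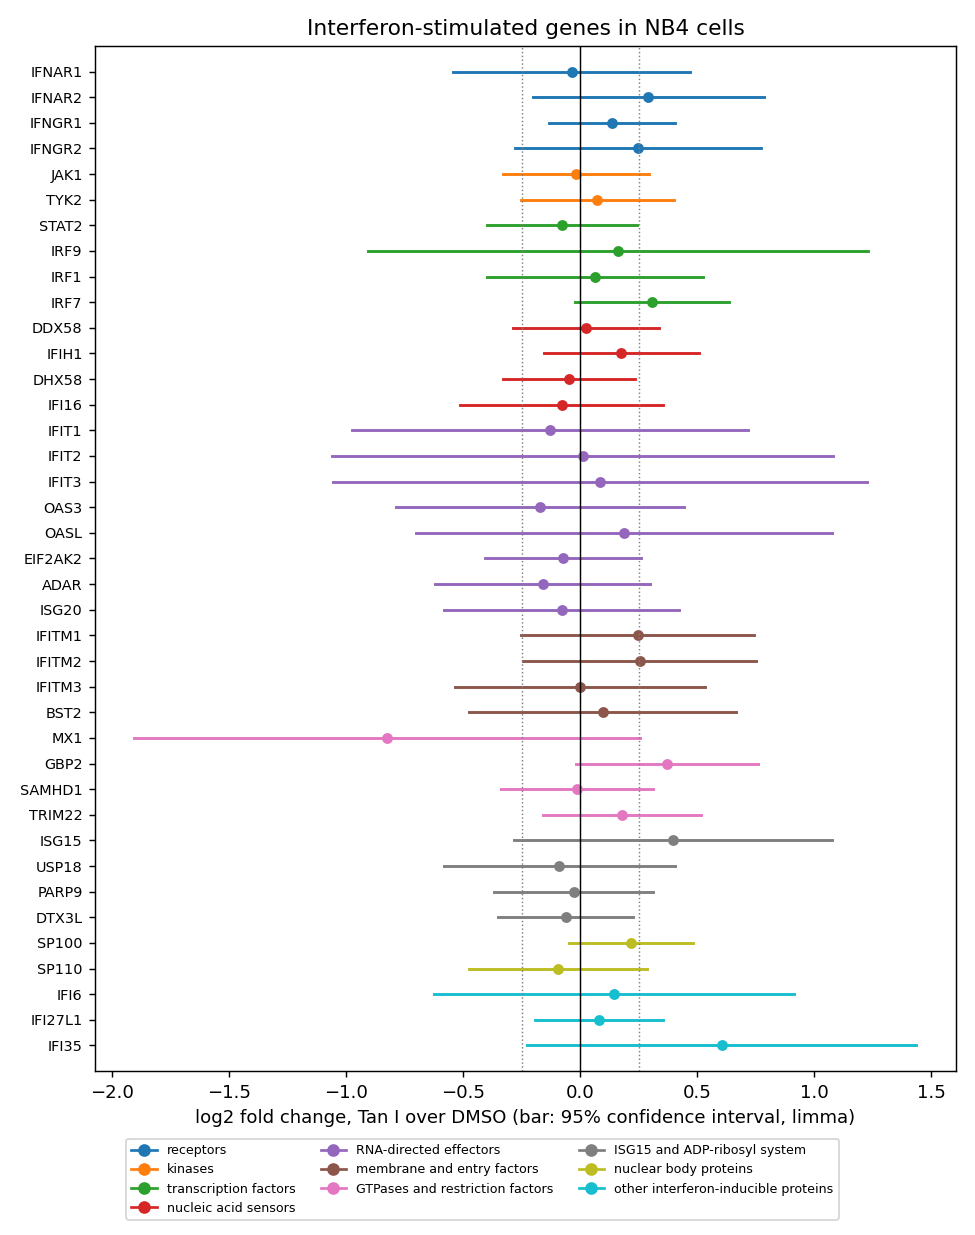
The plot gives on the x axis the Tan I to DMSO log2 fold change for the 39 members tested, with points for the estimate, bars for the 95% confidence interval from limma (n = 3 libraries per group) and colours for the role of each gene. All 39 intervals contain 0, as do those of 16477 of the 16887 genes tested, and the dotted lines mark the fold threshold of 0.25.

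The groups did not overlap for 4 of the 39 members tested, all higher under Tan I, against 3.92% of all genes tested that lay higher in every Tan I library and 3.97% that lay lower (7.89% in either direction). These were GBP2, IRF7, SP100 and IFNAR2, and for each the exact two-sided permutation p was 0.1, the smallest that 3 libraries against 3 allow.

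GBP2, an interferon-induced GTPase that attacks the membranes of intracellular microbes (GRCh38 chromosome 1, 89106132 to 89150456, - strand, GENCODE 44, as for the positions that follow), had 966, 1132 and 1049 normalized counts in DMSO replicates 1, 2 and 3 and 1160.2, 1252 and 1707 in Tan I replicates 1, 2 and 3. Every Tan I library lay above every DMSO library, with Tan I replicate 1 close to DMSO replicate 2 and Tan I replicate 3 far above the rest. The log2 fold change was 0.37 with a standard error of 0.17 (95% confidence interval -0.02 to 0.76) and an adjusted p of 0.999 from limma. It was past the unadjusted threshold with edgeR and with DESeq2, with a log2 fold change of 0.39 in each. An exon of GBP7 overlaps GBP2 on the same strand, so part of its reads could be assigned to either gene.

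IRF7, the transcription factor that amplifies type I interferon production (chromosome 11, 612553 to 615983, - strand), had 481, 488 and 489 normalized counts under DMSO and 582, 529 and 707 under Tan I. The DMSO libraries were almost level, while the Tan I libraries were spread over a wider range above them. Its log2 fold change was 0.31 with a standard error of 0.14 and a confidence interval of -0.02 to 0.64.

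SP100, a component of the nuclear bodies organised by PML (chromosome 2, 230415942 to 230545606, + strand), had 726, 807 and 727 normalized counts under DMSO and 889, 823 and 914 under Tan I. The groups were close, with DMSO replicate 2 just under Tan I replicate 2, and the log2 fold change was 0.22 with a standard error of 0.11. IFNAR2, a chain of the type I receptor, had 60.6, 66.5 and 64.1 under DMSO and 66.5, 76.9 and 93.4 under Tan I. Its separation rested on a difference of less than 1 normalized count between DMSO replicate 2 and Tan I replicate 1, from 69 and 68 reads. Exons of the IFNAR2-IL10RB readthrough gene overlap IFNAR2 on the same strand, and those of IL10RB-DT on the opposite strand. Exons of another gene overlap 25 of the 40 listed members, in 21 of them on the opposite strand, and since the strand setting of the counting is not given in the sources used here, the origin of reads in those stretches is uncertain.

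**Figure D2:**
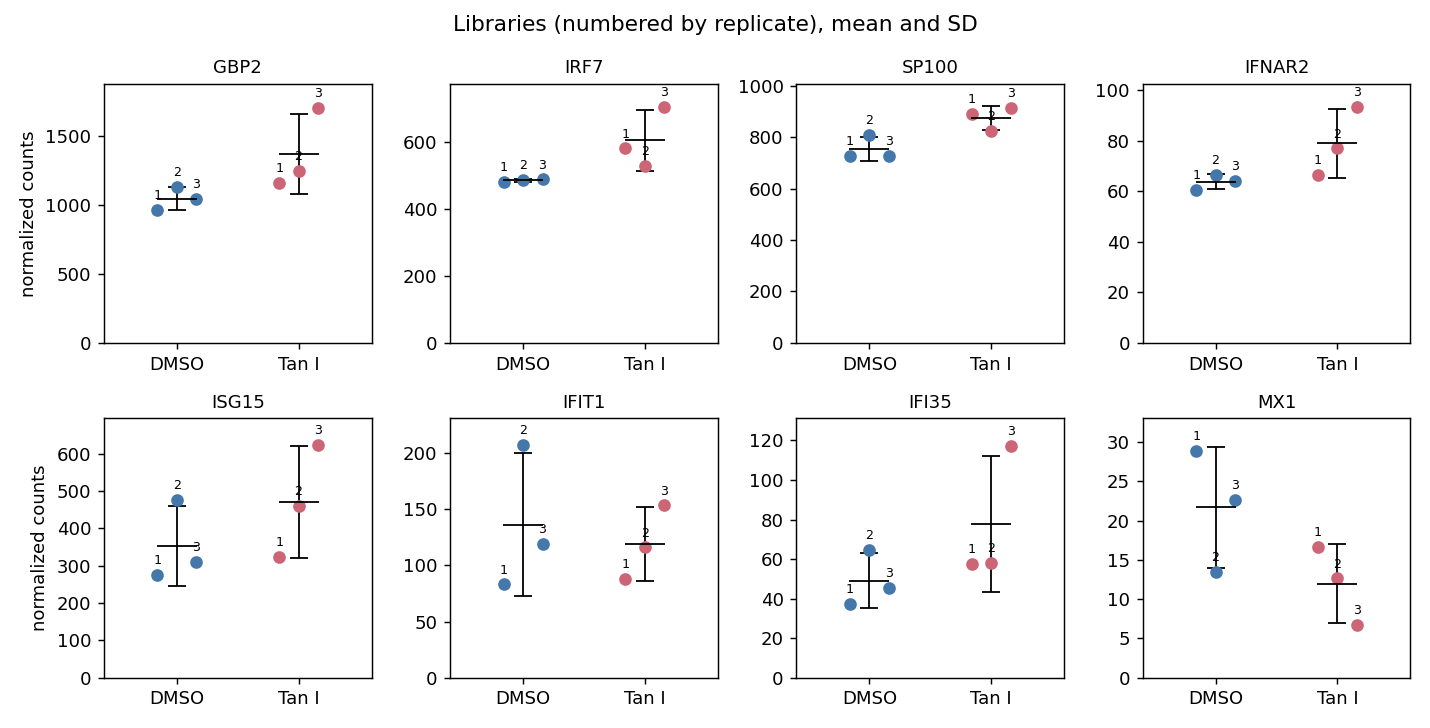
The panels give the normalized counts (y axis, from 0) of 8 members in each library, numbered by replicate, with the mean and SD (n = 3 per group) in black. The groups lie apart for GBP2, IRF7, SP100 and IFNAR2 and overlap for ISG15, IFIT1, IFI35 and MX1, and replicate 3 is the highest Tan I library in 7 of the 8 panels.

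Among the receptors, 3 of 4 had a fold change above 0 and 0 passed the test. IFNGR2, the signalling chain of the interferon gamma receptor, had 814, 1269 and 974 normalized counts under DMSO and 969.6, 1119 and 1551 under Tan I. Its libraries overlapped, with DMSO replicate 2 above the lower Tan I libraries. IFNGR1, the ligand-binding chain, was narrow under DMSO at 1046 to 1057.2 and ran from 1056.6 to 1279 under Tan I. Its groups overlapped through Tan I replicate 1, and the log2 fold change was 0.14 (standard error 0.12). IFNAR1, the other type I chain, had 442 ± 136 under DMSO and 419.6 ± 35.5 under Tan I (SD, n = 3 per group), and its DMSO spread came from replicate 2.

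The receptor kinases were highly expressed and differed little. TYK2, which docks on IFNAR1, had 16343, 13868 and 16601 normalized counts under DMSO and 17346, 17263 and 14653 under Tan I. JAK1, which serves both receptor types, had 2339.5, 2114 and 2365 under DMSO and 2634, 2081 and 2058 under Tan I. Both genes overlapped between groups, with log2 fold changes of 0.07 (standard error 0.14) and -0.02 (standard error 0.13).

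Of the transcription factors, STAT2, the subunit that gives the ISRE complex its activation domain, had 1684, 1531 and 1724 normalized counts under DMSO and 1800.4, 1558 and 1348 under Tan I. IRF9, its DNA-binding partner, had 182, 67.4 and 176 under DMSO and 214, 156 and 90.7 under Tan I. DMSO replicate 2 and Tan I replicate 3 were the low libraries of their groups for both genes, and for IRF9 this spread left an interval of -0.91 to 1.23 around a log2 fold change of 0.16. IRF9 exons overlap a readthrough gene on the same strand, so the origin of its reads is uncertain. IRF1, an early target of interferon gamma, had 214 ± 35.7 under DMSO and 223 ± 38.9 under Tan I (SD, n = 3 per group), and its exons overlap the antisense gene IRF1-AS1.

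Of the nucleic acid sensors, 2 of 4 had a fold change above 0 and none passed the test. DHX58, the regulatory RIG-I-like helicase also called LGP2, had 624, 547 and 592 normalized counts under DMSO and 544, 610.2 and 552 under Tan I. IFIH1, also called MDA5, which senses long double-stranded RNA, had 258, 301 and 261 under DMSO and 323, 282 and 321 under Tan I. IFI16, a sensor of DNA, had 309, 405 and 266 under DMSO and 275, 327 and 313 under Tan I. All 3 overlapped between groups, with log2 fold changes of -0.05, 0.18 and -0.08. DDX58, which encodes the RNA sensor RIG-I, had the lowest spread of the 39 members (within-group SD 0.07 on the log2 scale), with 242 to 275 under DMSO and 253 to 269 under Tan I. Its exons overlap another gene on the same strand.

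Of the 8 RNA-directed effectors tested, 3 had a fold change above 0 and 5 below, with a median log2 fold change of -0.08. ADAR, the adenosine deaminase that edits double-stranded RNA, had 8061, 6124 and 7551 normalized counts under DMSO and 8304, 6177 and 5210.3 under Tan I. OAS3, which makes the 2'-5' oligoadenylates that activate RNase L, had 69.0, 89.6 and 62.5 under DMSO and 77.2, 48.5 and 72.0 under Tan I. Both overlapped between groups, and the spread within each group exceeded the difference between the means. OASL, a relative that binds RIG-I, had 21.4, 24.1 and 24.2 under DMSO and 20.5, 20.0 and 45.3 under Tan I, so that only Tan I replicate 3 lay above the DMSO libraries. OAS1 was below the filter with 3, 9 and 12 reads under DMSO and 2, 11 and 10 under Tan I and was not tested.

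IFIT1, IFIT2 and IFIT3 encode the tetratricopeptide proteins that bind viral RNA, and they are described here because of their spread, after their values were seen. IFIT1 had 83.0, 207 and 119 normalized counts under DMSO and 88.0, 116 and 153 under Tan I. IFIT2 had 28.9, 62.6 and 23.4 under DMSO and 25.4, 30.6 and 56.0 under Tan I, and IFIT3 had 22.4, 53.0 and 20.3 under DMSO and 23.5, 23.2 and 53.3 under Tan I. For each of them DMSO replicate 2 and Tan I replicate 3 were the high libraries of their groups, and the log2 fold changes were -0.13, 0.01 and 0.09 with standard errors of 0.36, 0.46 and 0.49. EIF2AK2, the kinase PKR that halts translation, had 1520.1 ± 68.2 under DMSO and 1457 ± 250.1 under Tan I, and ISG20, an exonuclease, had 80.3 ± 10.6 and 76.1 ± 11.8 (SD, n = 3 per group).

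Among the membrane and entry factors, IFITM2, which blocks fusion of viruses in endosomes, had 2081, 3025 and 2414 normalized counts under DMSO and 2249, 3155 and 3633 under Tan I. IFITM1, its relative at the cell surface, had 1277, 1807 and 1390.1 under DMSO and 1375, 1709 and 2274 under Tan I. Both overlapped between groups with a log2 fold change of 0.25 (standard error 0.21), and each was highest in Tan I replicate 3. IFITM3 had a log2 fold change of -0.00. Reads mapping to several places were removed before counting, so reads that these paralogs share are missing. How far this lowers the counts of each is uncertain. BST2, which tethers budding virions, had 2079 ± 452 under DMSO and 2255 ± 666 under Tan I (SD, n = 3 per group). Per kilobase of exon BST2 and TYK2 had the highest mean levels of the members, 1888 and 1831 normalized counts per kilobase under DMSO. That DMSO order rests on the high BST2 value in DMSO replicate 2, and under Tan I the levels were 2048 and 1927. The order also depends on the exon lengths used, 1101 and 8520 bases, which merge the exons of all transcripts of a gene.

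MX1, a dynamin-like GTPase that traps viral nucleocapsids, had the lowest fold change and also one of the lowest levels of the members. It had 28.9, 13.5 and 22.7 normalized counts under DMSO and 16.6, 12.6 and 6.67 under Tan I, from 31, 14 and 29 reads and 17, 12 and 5 reads. The groups overlapped, since DMSO replicate 2 lay below Tan I replicate 1. The log2 fold change was -0.82 with a standard error of 0.46 and an interval of -1.90 to 0.25, and an antisense overlap with TMPRSS2 leaves its reads uncertain. Among the other restriction factors, SAMHD1, which depletes deoxynucleotides, had 477 ± 52.7 under DMSO and 471 ± 38.8 under Tan I, and TRIM22, a ubiquitin ligase, had 276 ± 22.2 and 313 ± 30.5 (SD, n = 3 per group).

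ISG15, the ubiquitin-like modifier, had 274, 476 and 311 normalized counts under DMSO and 324, 459.5 and 624 under Tan I (chromosome 1, 1001138 to 1014540, + strand). DMSO replicate 2 lay above the lower Tan I libraries, and the log2 fold change of 0.40 had a standard error of 0.29. USP18, the protease that removes ISG15 and restrains the receptor, had 78.3, 109 and 98.5 under DMSO and 87.0, 79.0 and 101 under Tan I. DTX3L, an E3 ligase, had 539, 653 and 577 under DMSO and 578, 559.6 and 552 under Tan I. USP18 and DTX3L overlapped between groups, and so did PARP9, the ADP-ribosyltransferase partner of DTX3L, at 327 ± 25.5 under DMSO and 322 ± 35.5 under Tan I (SD, n = 3 per group).

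SP110, a nuclear body protein related to SP100, had 913, 719 and 759 normalized counts under DMSO and 892, 702 and 652 under Tan I. IFI35, a binding partner of NMI, had the highest fold change of the members, with 37.3, 64.5 and 45.3 under DMSO and 57.7, 58.0 and 117 under Tan I. Its groups overlapped through DMSO replicate 2, and Tan I replicate 3 was far above all others. The log2 fold change of IFI35 was 0.61 with a standard error of 0.36 and an interval of -0.23 to 1.44. IFI6, a mitochondrial and endoplasmic reticulum protein, had 302, 528 and 347 under DMSO and 283, 408 and 647 under Tan I. IFI27L1, a relative of IFI6, had 778, 793 and 881 under DMSO and 801, 889 and 903 under Tan I, with overlapping groups for both genes.

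**Figure D3:**
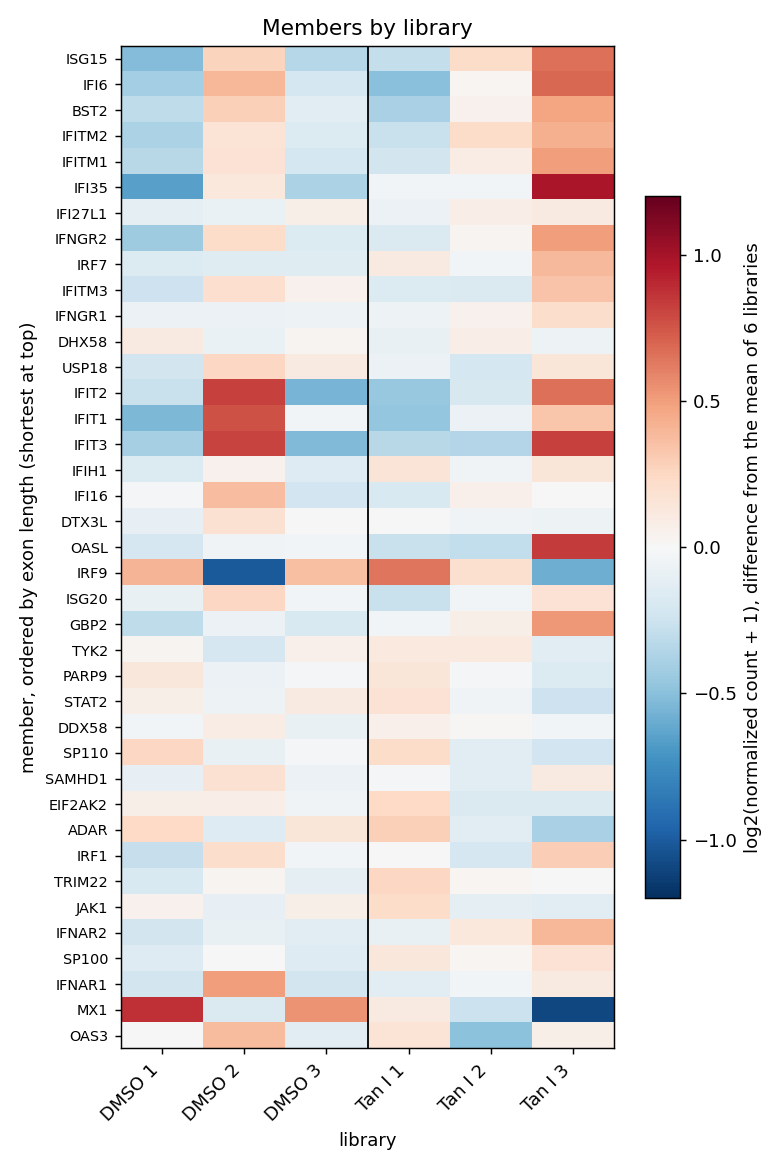
The heat map shows each tested member (ordered by exon length, shortest at the top) in each of the 6 libraries (columns), coloured by its difference from the mean over the 6 libraries in log2(normalized count + 1). The median deviation of the members was -0.17, 0.09 and -0.07 in DMSO replicates 1, 2 and 3 and -0.04, -0.03 and 0.15 in Tan I replicates 1, 2 and 3.

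Many members shared the order of the libraries within each group. DMSO replicate 2 was the highest DMSO library for 26 of 39 members (66.7%, against 45.9% of all genes tested), and Tan I replicate 3 was the highest Tan I library for 23 (59.0%, against 43.3%). Both held for 19 members (48.7%, against 35.0%), which include IFIT1, IFIT2, IFIT3, ISG15, IFI6, BST2 and the 3 IFITM genes. Both libraries were the lowest of their groups for 8 members (20.5%, against 32.1%), ADAR, IRF9, JAK1, MX1, PARP9, SP110, STAT2 and TYK2. These sets were formed after the values were seen and are not tested. Summed over the listed genes, normalized counts were 26277954 in DMSO replicate 2, against 23643626 and 24753132 in DMSO replicates 1 and 3. They were 28675740 in Tan I replicate 3, against 23750061 and 25557677 in Tan I replicates 1 and 2. Tan I replicate 3 also had the fewest reads on the listed genes, 21502760.

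From DMSO replicate 1 to replicate 2 the members differed by a log2 ratio of -1.42 for IRF9 to 1.31 for IFIT1, with a median of 0.23 beside 0.03 for all genes tested. From Tan I replicate 1 to replicate 3 the members ranged from -1.23 to 1.19, with a median of 0.22 beside 0.03. The Spearman correlation of these ratios with exon length, over genes that share the libraries and are not independent, was -0.46 and -0.64 for the 39 members and -0.17 and -0.23 for 16825 genes. Median exon length was 4326 bases for the 19 members and 9997.5 bases for the 8 members. Of those with a promoter entry, 8 of 14 and 2 of 8 held the ISRE-type letters shown above, as did 4 of 8 among the other tested members. The part of gene length, depth, scaling or RNA quality in this order was not tested.

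**Figure D4:**
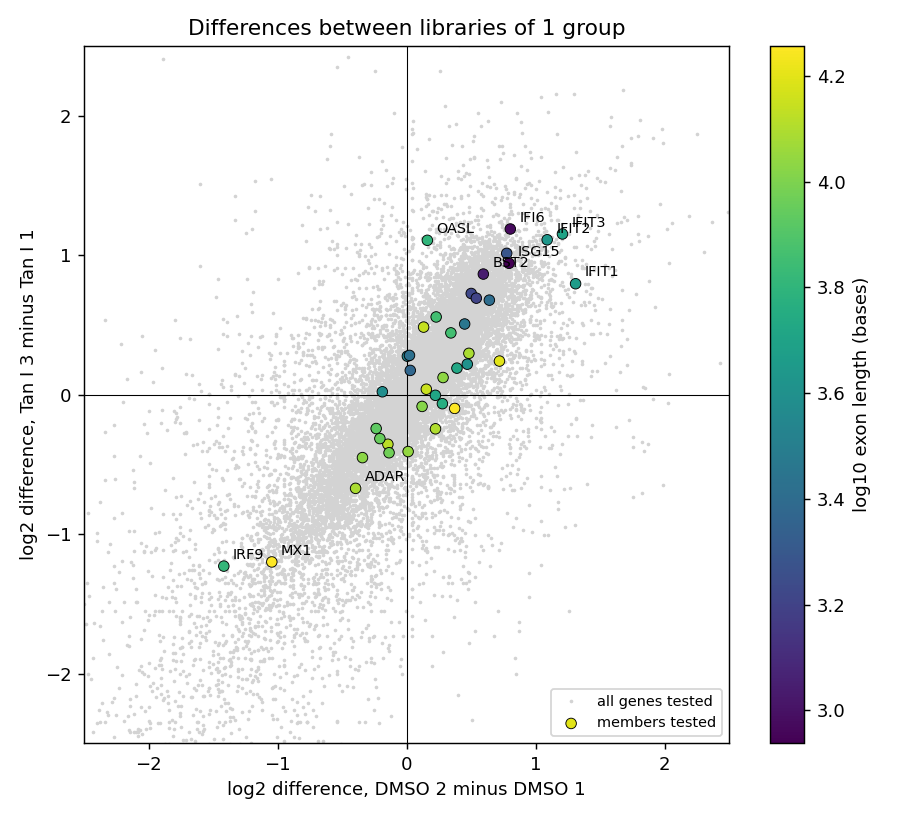
The scatter plot sets the log2 ratio of DMSO replicate 2 over replicate 1 (x axis) against that of Tan I replicate 3 over replicate 1 (y axis), with members coloured by the log10 of exon length in bases and all genes tested in grey. Members spread along the diagonal (Spearman 0.83 over 39 members, 0.78 over all genes), and 602 genes lie outside the axes.

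Other genes of the pathway were counted by list. Of 21 interferon genes, IFNA1 had a row, and of 25 other signalling components 20 were tested, with 1 called higher and 1 called lower unadjusted, where limma called 2.42% of all genes, and 0 after adjustment. CGAS, the sensor of cytosolic DNA, had 503, 463 and 425 normalized counts under DMSO and 526, 608 and 720.1 under Tan I, with a log2 fold change of 0.41 (limma, unadjusted p 0.0321, adjusted p 0.999). MYD88, the adaptor of Toll-like receptors, had 224 ± 27.0 under DMSO and 166 ± 19.7 under Tan I (SD, n = 3 per group), with a log2 fold change of -0.43 (limma, unadjusted p 0.0380, adjusted p 0.999). Of 60 further interferon-induced genes, 49 were tested, 28 had a fold change above 0, 21 below, and limma called 0 unadjusted, against the same 2.42% of all genes, with a median log2 fold change of 0.01.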

How the data were processed

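Total RNA of 6 NB4 libraries was sequenced. Per the methods and the submitters' processing notes, reads were aligned with STAR to GRCh38 and counted with featureCounts, and DESeq2 normalized the counts. Per the methods, reads mapping to several places were removed. Versions, annotation release and strand setting are not given in the sources used here. The authors deposited a signal per gene and library, normalized counts that are read counts divided by 1 size factor per library. The authors also deposited log2 fold changes with standard errors, a Wald score, and raw and adjusted p-values, which were not used. Values were whole multiples of 1 read (100% within 0.01 reads), so reads were recovered for the count tests.

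R 4.3.3 with limma 3.58.1 was fitted to log2(normalized count + 1), with a trend, keeping the 16887 genes whose mean reached 10, so fold changes of low genes are understated. Genes were called at p of at most 0.05, unadjusted or Benjamini-Hochberg adjusted, with a log2 fold change beyond ±0.25. Alternatives were edgeR 4.0.16, DESeq2 1.42.0 with default settings, another scaling, other pseudocounts and filters, a replicate block and leaving out each library; a first principal component covariate and leaving out DMSO replicate 2 with Tan I replicate 3 were added after seeing the data. The fit was tested on simulated data. Gene positions and exon lengths are from GENCODE 44, with the exons of all transcripts of a gene merged. The members and lists were chosen with earlier results of these data known. By the naming rule, per-library values are given for each member called unadjusted, for the member with the highest mean and the 2 with the largest absolute log2 fold change in each role group, and for members below the filter. Genes of the other lists are given by counts and cell type markers by summed levels, with values for those called unadjusted.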

Additional observations from a re-analysis of the deposited data

How the results depend on the processing

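No member passed the adjusted threshold under any of the 18 settings. Unadjusted, the count of members called was 1 with rescaling, edgeR and DESeq2 (GBP2 in each), against 2.58%, 2.42% and 2.49% of all genes. It was 3 with the principal component as covariate (GBP2, IRF7 and IRF9), against 8.86%. When 1 library was left out it was 0 to 3. Without Tan I replicate 1 it was GBP2, IFITM2 and ISG15, against 8.87%, and without Tan I replicate 2 it was IRF7, against 0.95%. Over all genes the unadjusted count of 408 ran from 161 without Tan I replicate 2 to 1485 without Tan I replicate 1, and was 1496 with the covariate. The adjusted count of 0 was 16 with DESeq2, 194 with the covariate and 2 without DMSO replicate 2 and Tan I replicate 3. The median of the members, 0.06, ran from -0.01 with the covariate to 0.14 without DMSO replicate 2. The causes were not tested.

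Same-numbered libraries had correlations of 0.75, -0.09 and -0.45 between their deviations from the group mean. The labels do not say whether same-numbered libraries were paired. These correlations cannot decide it, since the leading component orders the libraries within each group. With the replicate block 348 genes and 0 members were called unadjusted, and 0 adjusted. Of 698 member values over the settings, 65 changed sign, in 23 members, and no value was called with the opposite sign. IRF9, called with the covariate, ran from -0.30 to 0.50. With 3 libraries a group, low-count members such as MX1 and OASL were imprecise.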

Other observations

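A few interferon genes had too few reads for a firm value. CMPK2 had 9, 15 and 8 reads in DMSO and 4, 1 and 2 in Tan I. CXCL11, a chemokine induced by interferon gamma, had 8, 9 and 22 reads in DMSO and 5, 4 and 4 in Tan I. Both were below the filter and were picked after their values were seen. IFNA1 had 9, 21 and 16 reads in DMSO and 8, 12 and 3 in Tan I.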
